A study of Mus musculus with 12 samples.

Results

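The genes described here are 9 receptor genes of natural killer (NK) cells and the transcription factor gene Eomes. They were taken by symbol in GENCODE M21 from the gene count table, and each of the 10 symbols matched 1 of its 52636 gene identifiers. The 12 libraries came from female FVB/NJ mice with a Fo5 tumor, a mammary tumor of 1 MMTV-HER2 transgenic founder line. A fragment of it had been placed into a mammary fat pad, so all tumors share that origin, while the wild-type hosts keep their own immune cells. In the tumor TDB and liver TDB groups mice had been given 5 mg/kg of the anti-HER2(4D5-2C11)/CD3 antibody once by tail vein. This T cell-dependent bispecific antibody (TDB) binds HER2 with one arm and CD3, the signaling part of the T cell receptor, with the other. In the tumor vehicle and liver vehicle groups they had been given the histidine acetate, sucrose and Tween-20 buffer alone. Tumors averaged about 350 to 500 mm3 when treatment groups were formed, and organs were taken 24 h after the dose. Each group has 3 libraries of dissociated tissue, and the design text names 3 mice per treatment.

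NK cells are innate lymphocytes that kill stressed or tumor cells without an antigen receptor of their own. Whether they fire depends on the balance of activating receptors, which read stress-induced ligands, and inhibitory receptors, which read MHC class I on healthy cells. Klrk1 encodes NKG2D, an activating receptor for the Rae-1, H60 and MULT1 proteins, and Ncr1 encodes NKp46, an activating receptor that marks NK cells and other innate lymphocytes. Klrb1c encodes NK1.1, an activating lectin-like receptor long used to identify NK cells. Klrd1 encodes CD94, which pairs with NKG2A, the product of Klrc1, to read the nonclassical MHC molecule Qa-1, and Klre1 encodes a partner of the Klri receptors. Klra4, Klra7 and Klra8 encode Ly49D, Ly49G and Ly49H of the Ly49 family, whose members bind MHC class I or viral proteins. Eomes, or eomesodermin, is a T-box transcription factor needed for NK cell maturation. Klrk1, Klrd1, Klrc1 and Eomes are also expressed by activated or memory CD8 T cells, so they do not belong to NK cells alone. In dissociated whole tissue, fewer cells of a type and less RNA per cell cannot be told apart.

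Of the 10 genes, 8 lie on chromosome 6 in GRCm38, on both strands, between the start of Klrb1c at 128778485 and the end of Klra7 at 130233322, in the NK gene complex. Ncr1 lies on chromosome 7 (4337724 to 4345164, plus strand) and Eomes on chromosome 9 (118478212 to 118486132, plus strand). Of the 5 genes tested in tumor below, Klrk1, Ncr1 and Eomes had the smallest adjusted p for TDB against vehicle. The 250 bases before a RefSeq start of each (GRCm38.p6, a C57BL/6J sequence, given 5′ to 3′ on the gene's strand) are shown so that their control regions can be compared. The Klrk1 window is chr6:129623865-129624114 on the minus strand, that of Ncr1 is chr7:4337465-4337714 on the plus strand and that of Eomes is chr9:118477939-118478188 on the plus strand. None of the 3 windows holds an annotated exon. Capitals mark the letters TGTGGT or their reverse complement, the core that RUNX factors such as Runx3 bind.
Klrk1: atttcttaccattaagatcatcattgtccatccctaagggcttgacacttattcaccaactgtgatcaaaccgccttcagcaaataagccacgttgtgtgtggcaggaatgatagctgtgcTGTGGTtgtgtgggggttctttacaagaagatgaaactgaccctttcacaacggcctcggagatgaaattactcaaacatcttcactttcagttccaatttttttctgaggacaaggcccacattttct
Ncr1: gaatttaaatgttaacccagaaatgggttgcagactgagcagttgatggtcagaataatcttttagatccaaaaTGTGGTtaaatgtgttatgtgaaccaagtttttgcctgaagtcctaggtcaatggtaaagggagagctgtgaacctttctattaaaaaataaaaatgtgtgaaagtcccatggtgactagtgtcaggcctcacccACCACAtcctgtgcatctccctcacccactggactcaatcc
Eomes: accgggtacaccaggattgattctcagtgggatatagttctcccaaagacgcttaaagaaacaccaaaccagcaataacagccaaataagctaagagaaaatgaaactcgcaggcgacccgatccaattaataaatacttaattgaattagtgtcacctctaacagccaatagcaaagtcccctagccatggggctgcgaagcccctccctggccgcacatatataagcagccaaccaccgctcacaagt
The RUNX letters occurred once before Klrk1, 129 bases upstream, and at 176 and 41 bases upstream of Ncr1, the second on the opposite strand. They were not found in the Eomes window. Read on both strands, 14% of 32851 RefSeq promoter windows of this length held them. The T-box letters AGGTGT (11.8% of windows) were in none of the 3 windows shown. These matches describe letters in a window and no binding was measured. Klrd1 had no entry in the promoter table.

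Library totals ran from 18460159 to 29396324 counts. The tissue labels held against defining markers. Albumin and 4 other hepatocyte genes summed to 102500 to 173000 CPM (the count divided by the library total, times 1000000) in liver and to at most 38.9 CPM in tumor. In turn 5 epithelial tumor genes, Erbb2 among them, summed to 21350 to 24840 CPM in tumor and to at most 569 CPM in liver. The library liver TDB 3 stood apart from its replicates, with 2.05% mitochondrial counts against 0.847% and 0.914%. Genes were tested with edgeR (quasi-likelihood, TMM scaling) and p-values adjusted after Benjamini and Hochberg over all genes tested, with 0.05 as threshold. Changes are fitted log2 fold changes with their SE. The labels do not say which libraries come from the same mouse, and p-values measure the spread between these libraries only. Tumor and liver libraries of 1 treatment may share mice, and the main tests between tissues treat them as unpaired.

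TDB was first compared with vehicle in tumor, the tissue with the HER2 transgene. NK receptor transcripts were nearly absent from vehicle tumors and present in every tumor taken after TDB. Klrk1, the NKG2D gene, was counted 272, 369 and 189 times in tumor TDB libraries 1 to 3, against 6, 0 and 2 times in the tumor vehicle libraries. Its level was 11.2 ± 2.04 CPM with TDB and 0.127 ± 0.148 CPM with vehicle (SD, n = 3 each). The ranges were far apart and the fitted change was 6.55 (SE 0.48, adjusted p = 4.3e-05). Ncr1, the NKp46 gene, had 93, 68 and 51 counts with TDB and 2, 3 and 4 with vehicle, with a change of 4.46 (SE 0.42, adjusted p = 9.2e-05). Klrb1c, the NK1.1 gene, had 26, 30 and 21 counts with TDB and 0, 2 and 0 with vehicle, and changed by 4.97 (SE 0.66). Each of these activating receptors was higher in all 3 TDB tumors than in any vehicle tumor. Klrb1c shares exonic positions with Gm44511, a gene of the same strand that held 16 counts over all libraries.

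Among the CD94 group, Klrd1 had 26, 28 and 19 counts in tumor TDB libraries and 1, 0 and 3 in tumor vehicle libraries, a change of 4.01 (SE 0.59, adjusted p = 0.0012). Its partner gene Klrc1 had 14, 34 and 7 counts with TDB and 3, 0 and 1 with vehicle, and was too low for the filter. The ratio of its scaled sums was 12.01, with a 95% interval of 4.43 to 45.6 that covers counting error only. Klre1 had 15, 11 and 3 counts with TDB and 1, 0 and 0 with vehicle, a ratio of 25.3 (4.2 to 1035). Klrd1, Klrc1 and Klre1 all had ranges that did not overlap, with TDB higher.

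The Ly49 genes were sparse. Klra4, the Ly49D gene, had 12, 13 and 6 counts in tumor TDB libraries and 0, 0 and 3 in tumor vehicle libraries, a ratio of 9.03 (2.82 to 46.2). Klra7, the Ly49G gene, had 6, 8 and 0 counts with TDB and 0 in each vehicle tumor, so that it was at least 4.08-fold higher against a floor of 3 counts over the vehicle group. Tumor TDB 3 had no count of it, as the vehicle tumors. Klra8, the Ly49H gene, had 1, 1 and 0 counts with TDB and 0 in each vehicle tumor, under the floor in both groups. Ly49 genes are near-identical in sequence and their number differs between mouse strains, and the counts are on C57BL/6J gene models for FVB/NJ mice. How reads were split among family members is therefore uncertain for Klra4, Klra7 and Klra8.

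Eomes had 54, 60 and 30 counts in tumor TDB libraries, against 1, 0 and 0 in tumor vehicle libraries. The level was 1.96 ± 0.515 CPM with TDB and 0.016 ± 0.0278 CPM with vehicle (SD, n = 3 each), and the change was 6.65 (SE 0.63, adjusted p = 0.0001). With 1 vehicle count in all, the ratio of 126 has a counting interval of 22.2 to 5003. Eomes shares exonic positions with the antisense gene Gm33460, which held 5 counts over all libraries. Whether counting used strand is not given in the sources used here. Reads of this pair cannot be told apart without it.

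In all, 5 of the 10 genes (Klrk1, Ncr1, Klrb1c, Klrd1 and Eomes) passed the filter in tumor and each was higher with TDB, while 15.8% of the 15454 genes tested were called higher and 13.1% lower. Of all calls in tumor, 54.7% were in the higher direction with TMM, 41% with upper quartile scaling and 31.7% with library totals alone, and the 5 genes were higher under each. Library totals moved the median of all genes by -0.13 in tumor and by 0.11 in liver. These 5 passed it through their TDB libraries, so their count says nothing beyond their own values. Without the filter 9 of the 10 genes were called higher, all but Klra8, including Klrc1 (adjusted p = 0.0004), Klre1 (0.0017), Klra4 (0.006) and Klra7 (0.0267). In that fit 2675 of 26132 genes were called higher. In 8 of the 10, all but Klra7 and Klra8, the lowest TDB tumor lay above the highest vehicle tumor, and 11.7% of genes with a count did the same. For 1 gene the exact two-sided permutation test of 3 against 3 libraries cannot go below 0.1, the value of each of these 8.

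**Figure D1:**
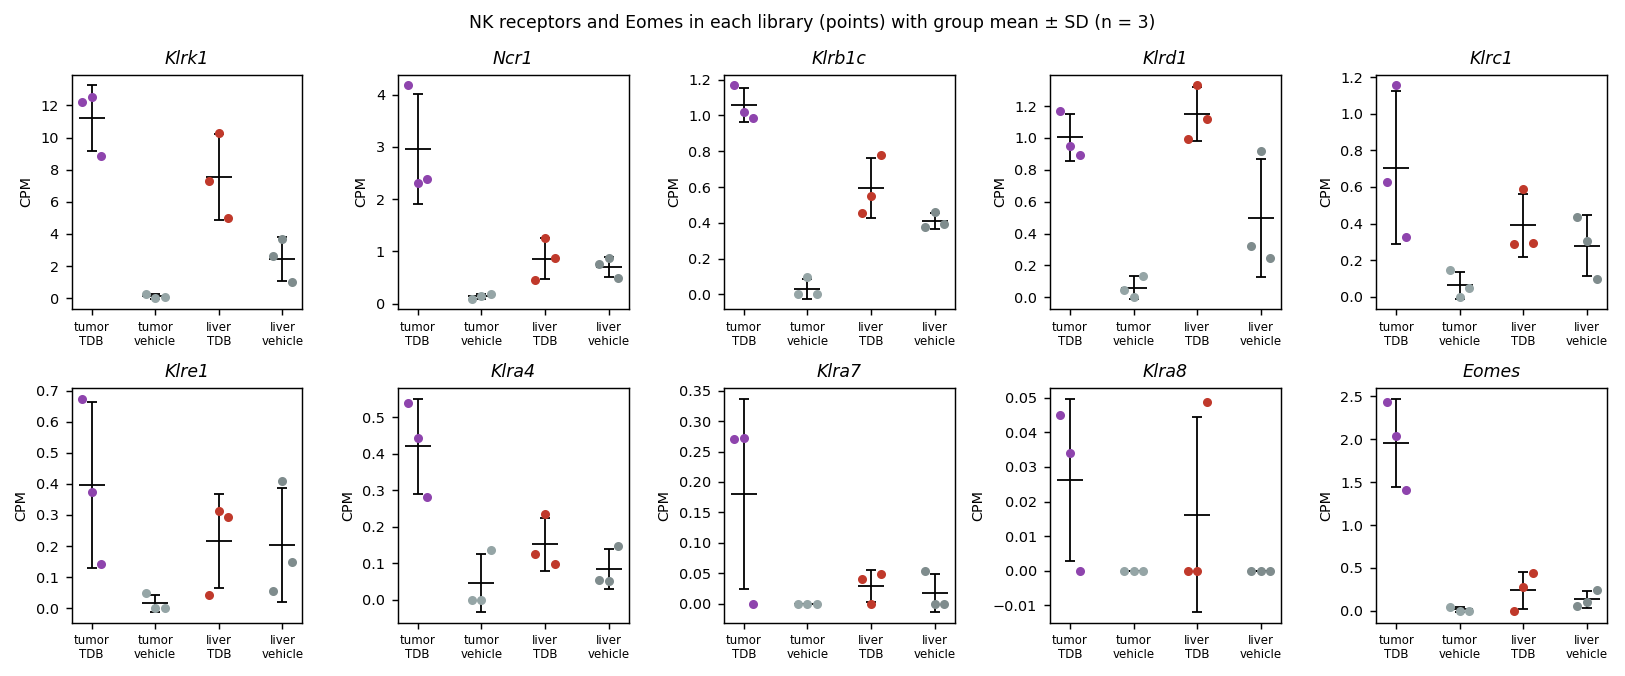
Level of each of the 10 genes (CPM) in the 12 libraries, 1 point per library, with a bar for the group mean and whiskers for the SD (n = 3). Each panel has its own scale, and the tumor TDB points lie above the tumor vehicle points in 8 panels.

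In liver no gene of the 10 passed the adjusted threshold, while every TDB liver lay above every vehicle liver in the CPM of Klrk1 and Klrd1. Klrk1 had 176, 263 and 103 counts in liver TDB libraries and 48, 72 and 20 in liver vehicle libraries. The level was 7.54 ± 2.65 CPM with TDB and 2.42 ± 1.36 CPM with vehicle (SD, n = 3 each), with no overlap, and the change was 1.52 (SE 0.52, unadjusted p = 0.0197, adjusted p = 0.436). Klrd1 had 24, 34 and 23 counts with TDB and 6, 18 and 5 with vehicle, a change of 1.07 (SE 0.54, adjusted p = 0.706), and its ranges did not overlap either. Ncr1 had 11, 32 and 18 counts with TDB and 14, 17 and 10 with vehicle. The ranges of Ncr1 overlapped, and its change of 0.17 (SE 0.47, adjusted p = 0.933) turned to -0.25 without liver TDB 2 and to -0.06 without liver vehicle 3.

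The other 7 genes were below the filter in liver. Klrb1c had 11, 14 and 16 counts in liver TDB libraries and 7, 9 and 8 in liver vehicle libraries, a ratio of scaled sums of 1.42 (0.837 to 2.45). Klrc1 had 7, 15 and 6 with TDB and 8, 6 and 2 with vehicle, a ratio of 1.45 (0.76 to 2.88). Klre1 had 1, 8 and 6 with TDB and 1, 8 and 3 with vehicle, and Eomes had 0, 7 and 9 with TDB and 1, 2 and 5 with vehicle. The intervals of Klrb1c, Klrc1, Klre1 and Eomes all included 1, that of Klre1 running from 0.454 to 2.43 and that of Eomes from 0.671 to 4.48. Klra4 had 11 counts with TDB and 5 with vehicle in all, and Klra7 and Klra8 had at most 1 in any liver library.

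Of 3 genes tested in liver edgeR called 0, DESeq2 0 and limma-voom 0, and 1 (Klrk1) had an unadjusted p below 0.05. Over all genes 0.513% were called higher and 0.022% lower, so few genes of any kind passed in liver. Klrk1 and Klrd1 were the 2 genes of 10 whose TDB livers all lay above the vehicle livers, a pattern that 8.83% of genes with a count showed.

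The effect of TDB in tumor was set against that in liver by an interaction term fitted to all 12 libraries. Klrk1, Ncr1 and Klrb1c showed a larger effect of TDB in tumor than in liver. The difference, tumor effect minus liver effect on the log2 scale, was 4.95 for Klrk1 (SE 0.87, adjusted p = 0.0097), 4.23 for Ncr1 (SE 0.65, adjusted p = 0.0049) and 4.45 for Klrb1c (SE 0.78, adjusted p = 0.0093). Klrd1 had a difference of 2.84 (SE 0.88, adjusted p = 0.148), Klrc1 one of 3.06 (SE 1.1, adjusted p = 0.231) and Eomes one of 5.85 (SE 1.48, adjusted p = 0.0683), and these did not pass. DESeq2 called 5 of the 6, Klrd1 (adjusted p = 0.0335) and Eomes (0.0024) in addition, and it called 582 of 16557 genes higher. Eomes was also called by limma-voom (0.0226), without the filter (0.027), without liver TDB 1 (0.0265) and without liver TDB 3 (0.0291). The other 4 genes were below the filter. Eomes passed it through its tumor TDB libraries, where it is high. Klrb1c, which was below the filter in the liver test, also needed its tumor TDB libraries to pass. The results of Eomes and Klrb1c here thus say nothing beyond their own values. Among all genes 1.83% were called higher in this test and 0.658% lower, and the higher calls were 73.5% of the calls with TMM and 58.4% with library totals. The larger effect in tumor was not particular to these genes. Of 13 T cell markers 5 were called higher and 0 lower, with a median difference of 2.43 beside -0.12 for all genes. So were 1 of 1 gamma-delta T cell, 1 of 5 type 1 innate lymphoid cell and 1 of 4 B cell genes tested. Calls of Cd5, Trbc2, Trdc, Cxcr6 and Cd79b were lost in some fits without 1 library. The vehicle level of Klrk1, Ncr1 and Klrb1c was lower in tumor than in liver, as described next.

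**Figure D2:**
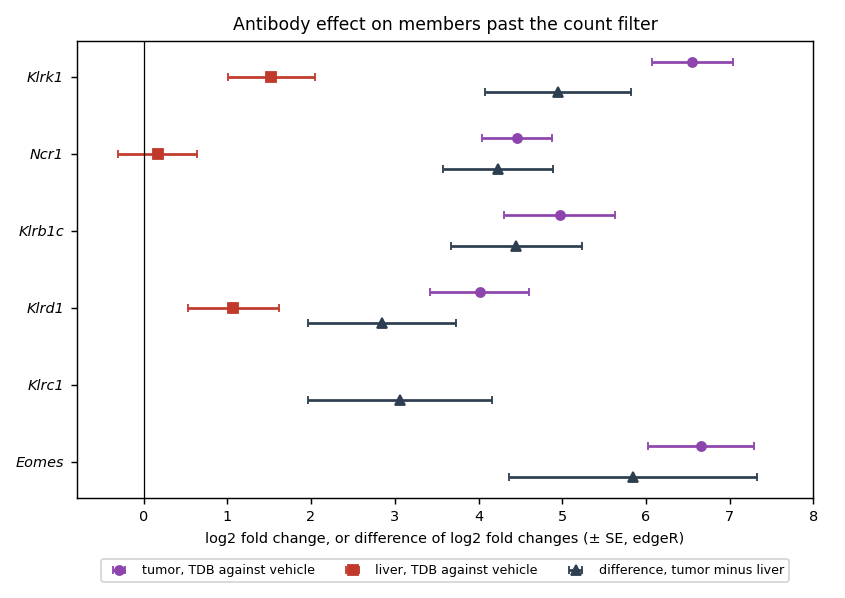
Change with TDB in tumor (circles) and in liver (squares) and the difference between both (triangles) for the genes past the count filter, on the log2 scale with ± SE from edgeR. The tumor changes of 5 genes lie between 4.01 and 6.65, the 3 liver changes between 0.17 and 1.52.

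Levels were then compared between tumor and liver within each treatment. The sequencing of liver is dominated by few hepatocyte genes, and the TMM factors were 1.486 to 1.571 in tumor and 0.5955 to 0.7428 in liver. With library totals in place of TMM the median of all genes shifted by 1.13 between TDB tumor and liver and by 1.33 between vehicle tumor and liver, so small differences between tissues depend on the scaling. With vehicle, Klrk1 and Ncr1 were lower in tumor under both scalings. Klrk1 was lower in vehicle tumor than in vehicle liver by TMM (-5.52, SE 0.77, adjusted p = 0.00015) and by library totals (-4.2), and Ncr1 likewise (-3.58, SE 0.46, adjusted p = 8.8e-05, and -2.27 by library totals). These are the 2 of 10 genes past the filter. Both passed it through their liver libraries, where they are high, so their count says nothing beyond their own values. Of all genes tested 37.8% were called lower and 40.8% higher in this comparison, or 79.1% of the calls higher by library totals. Klrb1c, Klrd1, Klre1 and Eomes were below the filter, and their vehicle tumors also all lay under the vehicle livers in CPM. Klrb1c had 0, 2 and 0 counts in tumor and 7, 9 and 8 in liver, a ratio of 0.0762 (0.00873 to 0.307). The count of 6 of 10 genes apart in this direction stands beside 13.4% of genes with a count.

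After TDB 6 of the 10 genes could be tested between the tissues, and for 3 of them (Klrk1, Klrb1c and Klrc1) the sign of the difference depended on the scaling. This comparison uses the same TDB libraries as the comparisons with vehicle. Eomes was the 1 member called higher in TDB tumor than in TDB liver, at 1.96 ± 0.515 CPM and 0.237 ± 0.221 CPM (SD, n = 3 each). The change was 1.96 by TMM (SE 0.69, adjusted p = 0.0385) and 3.06 by library totals (adjusted p = 0.0064). Eomes had 10 or more counts in 3 tumor TDB and 0 liver TDB libraries. It thus passed the filter through the group where it is high, and the call says nothing beyond its own values. It no longer passed without liver TDB 2 (adjusted p = 0.093) and without tumor TDB 1 (0.105), 2 (0.0951) or 3 (0.0583). Klrd1 was lower in TDB tumor by TMM (-1.33, SE 0.26, adjusted p = 0.0035), with 1.0 ± 0.146 CPM in tumor and 1.15 ± 0.17 CPM in liver, and by library totals the difference was -0.2 (adjusted p = 0.508). Ncr1 had 2.96 ± 1.06 CPM in tumor and 0.862 ± 0.398 CPM in liver, a difference of 0.64 by TMM (SE 0.41, adjusted p = 0.201) and of 1.77 by library totals (adjusted p = 0.0079). For Klrk1 the difference was -0.58 by TMM (adjusted p = 0.146; 0.0047 without liver TDB 3) and 0.57 by library totals, and for Klrb1c it was -0.28 (adjusted p = 0.391) and 0.84 (adjusted p = 0.0345), so neither has a direction that holds under both. Klrc1 stood at -0.26 (adjusted p = 0.693) and 0.87 (adjusted p = 0.183), and neither passed. Over all genes 34.1% were called higher and 33.5% lower, and of the calls 50.4% were higher by TMM and 79.2% by library totals.

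Put in order of CPM, 8 of the 10 genes were highest in TDB tumor, followed by TDB liver, vehicle liver and vehicle tumor. The share of all genes in this order was not counted. CPM rests on library totals, and the order of TDB tumor and TDB liver depends on the scaling. By TMM Klrk1 (-0.58), Klrb1c (-0.28) and Klrc1 (-0.26) were lower in TDB tumor, as was Klre1 without the filter (-0.16), and none of these passed. Klrd1 had TDB liver first (1.15 CPM), which overlapped with TDB tumor (1.0 CPM), and Klra8 was at or near 0 throughout. TDB tumor and TDB liver did not overlap for Ncr1, Klrb1c, Klra4 and Eomes, while 48.8% of genes with a count were likewise higher in TDB tumor. TDB liver and vehicle liver were apart for Klrk1 alone among the genes in which they are neighbours in this order. Across genes levels can be set side by side only per length. Ncr1 was the highest in TDB tumor at 1.92 ± 0.686 CPM per exonic kb, followed by Klrk1 at 1.56 ± 0.284 and Klrd1 at 0.784 ± 0.114 CPM per exonic kb. In TDB liver Klrk1 was highest at 1.05 ± 0.369, followed by Klrd1 at 0.897 ± 0.132 and Ncr1 at 0.559 ± 0.259 CPM per exonic kb. This order rests on the length used. The exons of Klrk1 join to 7183 bp over all transcripts, while its longest transcript has 3259 bp, and by that transcript Klrk1 leads in TDB tumor too (3.44 against 1.98 CPM per kb for Ncr1).

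The make-up of the receptor transcripts was compared by dividing counts of 1 gene by those of Ncr1 within each library, which removes the scaling. In liver Klrk1 was counted 16, 8.22 and 5.72 times as often as Ncr1 with TDB and 3.43, 4.24 and 2.0 times with vehicle. The ranges did not overlap (exact two-sided permutation p = 0.1, the smallest that 3 against 3 can give). In TDB tumor this ratio was 2.92, 5.43 and 3.71, below each TDB liver. Klrd1 over Ncr1 was 0.28, 0.412 and 0.373 in TDB tumor and 2.18, 1.06 and 1.28 in TDB liver, apart as well, and in vehicle liver it was 0.429, 1.059 and 0.5, with the highest just under the lowest TDB liver (1.062). Eomes over Ncr1 was 0.581, 0.882 and 0.588 in TDB tumor and 0, 0.219 and 0.5 in TDB liver, again without overlap. Klrb1c over Ncr1 was 0.28 to 0.441 in TDB tumor and 0.438 to 1.0 in TDB liver, with overlap. Per Ncr1 count there was thus more Klrk1 and Klrd1 in TDB liver and more Eomes in TDB tumor. These 4 ratios and that of Cd3e below were compared in 4 pairs of groups, and with a smallest exact p of 0.1 none could pass an adjustment.

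**Figure D3:**
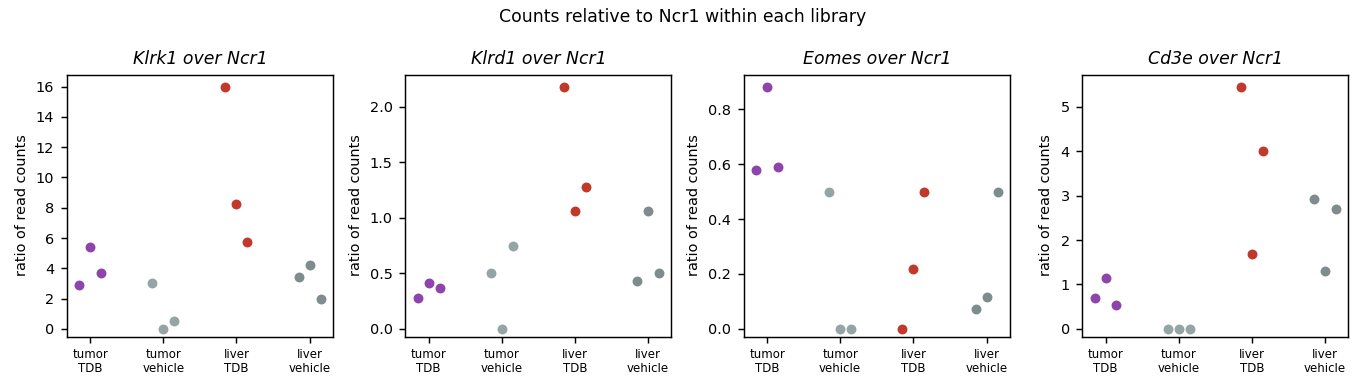
Counts of Klrk1, Klrd1, Eomes and the T cell gene Cd3e divided by those of Ncr1 in the same library, 1 point per library. TDB livers lie above TDB tumors for Klrk1, Klrd1 and Cd3e and below them for Eomes; vehicle tumors have 2 to 4 Ncr1 counts each and their ratios are not informative.

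Other genes of the same lectin-like receptor family were mostly too low to test. Of the 18 counted, 5 passed the filter in tumor, where Klrb1b, Klra2 and Klri2 rose with TDB and Klrb1a and Klrg2 did not pass. The median change of the 5 was 2.32, beside -0.02 for all genes. Klrb1b, the gene of the inhibitory receptor NKR-P1B, had 114, 140 and 110 counts in tumor TDB and 2, 0 and 1 in tumor vehicle libraries, a change of 6.70 (SE 0.42, adjusted p = 7.2e-06). In liver it had 3, 6 and 3 counts with TDB and 1, 2 and 2 with vehicle, and the difference between tissues passed (5.74, SE 0.94, adjusted p = 0.0066). Klrb1b passed the filter there through its tumor TDB libraries, where it is high, so this call says nothing beyond its own values. Klri2, an activating partner of the Klre1 product, had 18, 21 and 14 counts with TDB and 0, 0 and 1 with vehicle in tumor (change 5.23, SE 0.69). Klra2, the gene of an inhibitory Ly49 receptor found also on myeloid cells, was at 7.02 ± 0.671 CPM with TDB and 1.53 ± 0.708 CPM with vehicle in tumor (change 2.32, SE 0.32), and in liver it was the 1 of 18 tested (0.75, adjusted p = 0.78). The Klrb1 genes are also near-identical, and reads of Klrb1a, Klrb1b and Klrb1c may have been exchanged.

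Genes of receptor adaptors and proximal signaling, phosphatases among them, rose in tumor in 8 of 11 tested (14 were counted), with a median change of 1.22. Fcer1g, the signaling chain shared by NKp46, NK1.1 and Fc receptors, was at 37.1 ± 1.48 CPM with TDB and 11.5 ± 2.2 CPM with vehicle (change 1.82, SE 0.14). Lcp2, the adaptor SLP-76, changed by 1.94 (SE 0.13), the exchange factor Vav1 by 1.79 (SE 0.14) and the phosphatase Inpp5d by 1.22 (SE 0.13; adjusted p = 0.0576 with all 12 libraries in the fit). Zap70, the kinase of T and NK cells, Syk, Tyrobp (adjusted p = 0.119 with all 12 libraries in the fit) and Ptpn6 also rose, and Cd247, Plcg2 and Sh2d1b1 did not pass. Most of these genes are active in myeloid cells too. Hcst, the NKG2D adaptor DAP10, was below the filter in tumor, with 12, 12 and 10 counts in TDB libraries and 7, 1 and 7 in vehicle libraries. Cd247, the zeta chain that serves NKp46 and the T cell receptor, had 49, 48 and 27 counts with TDB and 68, 59 and 31 with vehicle (change -0.41, adjusted p = 0.401). In liver edgeR called 0 of 11 adaptor and signaling genes, DESeq2 2 and limma-voom 0, and 4 had an unadjusted p below 0.05.

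The ligands moved in opposite directions in tumor. Ulbp1, which encodes the NKG2D ligand MULT1, fell to 118, 84 and 162 counts in tumor TDB libraries, against 731, 710 and 786 in tumor vehicle libraries. The level was 5.25 ± 2.37 CPM with TDB and 34.9 ± 0.993 CPM with vehicle (SD, n = 3 each), a change of -2.62 (SE 0.31, adjusted p = 0.0012). In liver Ulbp1 had 8, 31 and 32 counts with TDB and 6, 11 and 9 with vehicle (change 1.06, adjusted p = 0.737), and the tissues differed in effect by -3.72 (SE 0.65, adjusted p = 0.0091). Of 5 epithelial markers Erbb2 (-0.58, adjusted p = 0.00062) and Krt8 (-0.27, adjusted p = 0.0484) were called lower in tumor too. With all 12 libraries in the fit neither passed (adjusted p = 0.104 and 0.29), and Krt8 also did not pass with median-of-ratios scaling (0.0528), by limma-voom (0.0507) or without tumor TDB 2 or 3 or tumor vehicle 1 or 2 (0.127 to 0.162). The summed level of the 5 was 22750 to 23830 CPM with TDB and 21350 to 24840 CPM with vehicle. The part of these markers in the fall of Ulbp1 was not tested. The other NKG2D ligand genes tested, Raet1d and Raet1e of the Rae-1 family, were counted mainly in liver. Raet1d had 0.123 ± 0.0723 CPM in TDB tumor and 3.21 ± 0.216 CPM in TDB liver, and Raet1e 0.015 ± 0.026 CPM in TDB tumor and 3.4 ± 0.401 CPM in TDB liver. Both were lower in tumor than in liver under either treatment, and with TDB neither passed in liver (Raet1d -0.47, adjusted p = 0.709). H60b was below the filter, with 4, 5 and 13 counts in TDB tumor and 3, 1 and 1 in vehicle tumor, and H60c had 1 count in all libraries together. Raet1a, Raet1b and Raet1c had no entry by symbol.

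Genes of MHC class I, which inhibitory receptors read, rose in tumor. H2-T23, the Qa-1 gene read by CD94 and NKG2A, was at 94.2 ± 11.5 CPM with TDB and 20.9 ± 2.77 CPM with vehicle (change 2.31, SE 0.13, adjusted p = 6.1e-06). H2-D1 was at 3232 ± 597 CPM with TDB and 486 ± 80.4 CPM with vehicle (2.87, SE 0.18), and H2-K1 changed by 2.54 (SE 0.17). Clec2d, the Clr-b ligand of NKR-P1B, was at 162 ± 16.9 CPM with TDB and 52.9 ± 13.3 CPM with vehicle (1.75, SE 0.18, adjusted p = 0.00045). Thus 4 of 5 ligand genes tested in tumor rose and 1 fell. In liver edgeR called 0 of 7, as did DESeq2 (0) and limma-voom (0), while 3 had an unadjusted p below 0.05. H2-D1 there had 1369 ± 342 CPM with TDB and 727 ± 71.4 CPM with vehicle (0.80, SE 0.25, adjusted p = 0.357). The difference between tissues passed for H2-D1 (2.02, SE 0.35) and H2-K1 (1.91, SE 0.34). H2 genes are near-identical copies of each other and polymorphic between strains, so their split is uncertain.

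**Figure D4:**
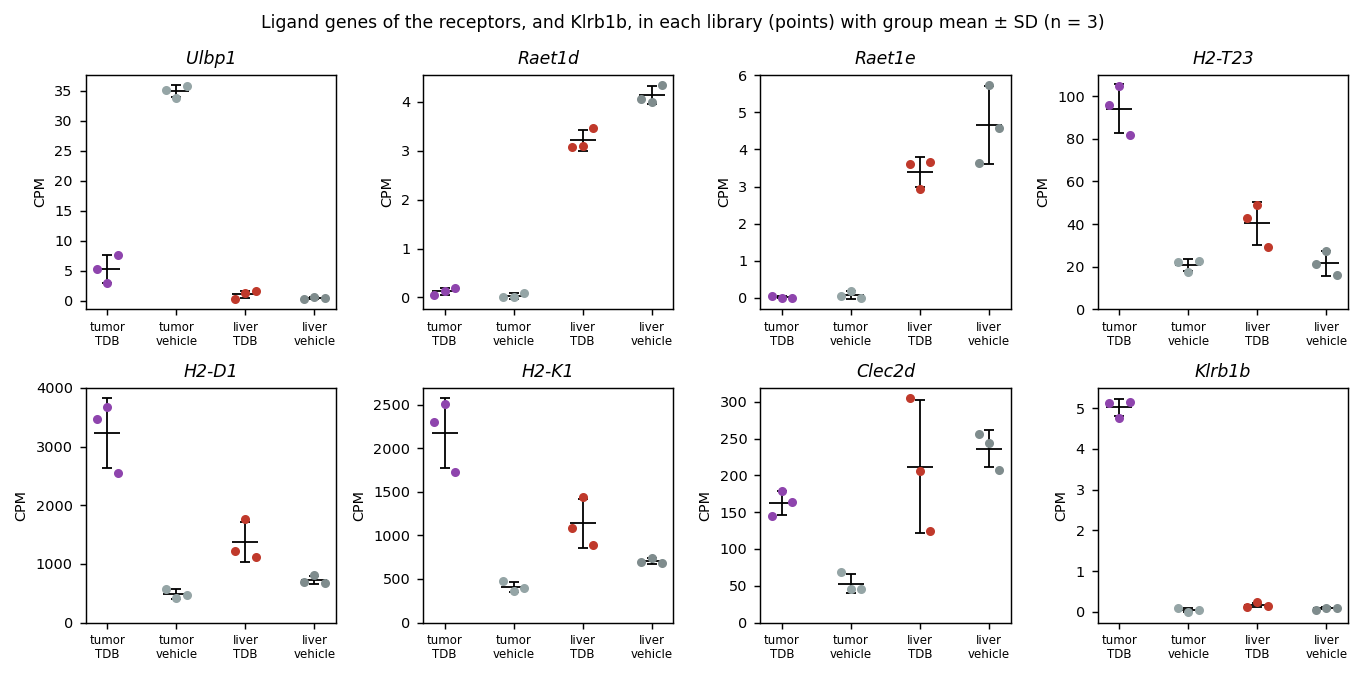
Level (CPM) of 7 ligand genes and of Klrb1b in the 12 libraries, 1 point per library, with group mean and SD (n = 3). In tumor, Ulbp1 lies between 2.86 and 7.6 CPM with TDB and between 33.9 and 35.8 CPM with vehicle, while the MHC class I genes, Clec2d and Klrb1b lie higher with TDB than with vehicle.

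Among transcription factors of NK and innate lymphoid cells, 7 of 11 tested rose in tumor and 0 fell, with a median change of 0.97. With all 12 libraries in the fit Id2 (adjusted p = 0.349), Zeb2 (0.138) and Prdm1 (0.283) were not among them, and Id2 did not pass by library totals (0.0651) or without tumor TDB 1 (0.0695), tumor TDB 2 (0.0668) or tumor vehicle 1 (0.0538). Tbx21, which encodes T-bet, the T-box partner of Eomes, had 63, 74 and 62 counts with TDB and 0, 1 and 0 with vehicle (change 7.14, SE 0.53, adjusted p = 2.1e-05). In liver it had 16, 30 and 14 counts with TDB and 10, 7 and 7 with vehicle (0.91, adjusted p = 0.682), and the tissues differed in effect (6.03, SE 0.77, adjusted p = 0.0013). Tbx21 counts over Eomes counts were 1.17, 1.23 and 2.07 in the TDB tumors, 4.29 and 1.56 in TDB livers 2 and 3, and 10.0, 3.5 and 1.4 in the vehicle livers. TDB liver 1 had no Eomes count, and the ranges of these groups overlapped. Ikzf3, encoding the lymphocyte factor Aiolos, changed by 3.79 (SE 0.38) in tumor, Runx3 by 1.64 (SE 0.20) and Nfil3, a factor early in NK development, by 1.48 (SE 0.20). In liver edgeR called 0 of 8, DESeq2 0 and limma-voom 0, and 0 had an unadjusted p below 0.05.

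Of 16 tested genes for other NK cell and cytokine receptors and effectors, 13 rose in tumor, 1 fell and 2 did not pass, with a median change of 3.83. Il18r1, 1 of the 13, did not pass with all 12 libraries in the fit (0.58, adjusted p = 0.468). Il2rb, the receptor chain for interleukin 2 and 15 on which NK cells depend, had 439, 535 and 255 counts with TDB and 9, 9 and 8 with vehicle (5.46, SE 0.27, adjusted p = 1.6e-06). Xcl1, a chemokine of activated NK and CD8 T cells, had 118, 164 and 95 counts with TDB and 4, 3 and 1 with vehicle (5.42, SE 0.35). Tnfsf10, the death ligand TRAIL, was at 469 ± 33.1 CPM with TDB and 21.4 ± 8.17 CPM with vehicle (4.58, SE 0.28), and Il12rb2, an interleukin 12 receptor chain, changed by 3.58 (SE 0.36). Cx3cr1, a chemokine receptor of mature NK cells and of macrophages, fell by 1.57 on the log2 scale to 231, 299 and 323 counts in TDB tumors, against 866, 712 and 875 in vehicle tumors. In liver Tnfsf10 was the 1 of 12 that rose, at 50.9 ± 27.3 CPM with TDB and 6.39 ± 2.04 CPM with vehicle (2.84, SE 0.43, adjusted p = 0.043). It did not pass without liver TDB 2 (adjusted p = 0.162) or without liver vehicle 1 (0.291), 2 (0.159) or 3 (0.274).

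Between the tissues the associated genes went in both directions. Values here are fitted log2 differences with TMM scaling, tumor minus liver. In TDB samples 4 of 5 other lectin-like receptor genes tested were higher in tumor, Klrb1b by 3.72 and Klri2 by 1.92, Klrb1a by 1.99 and Klrg2 by 2.68, and Klra2 was lower (-0.80, but 0.34 by library totals). Of 11 adaptor and signaling genes 1 was higher, the phospholipase Plcg2 (2.25), and 4 were lower. Of these Zap70 (-4.13) was also called lower by library totals, while Tyrobp (-1.58, against -0.42 by library totals, adjusted p = 0.231), Cd247 (-1.17, against -0.03, adjusted p = 0.92) and Hcst (-1.29, against -0.16, adjusted p = 0.667) were not. Of 7 ligand genes 3 were lower, Raet1d (-5.75), Raet1e (-8.48) and Clec2d (-1.55), of which Clec2d did not pass by library totals (-0.38, adjusted p = 0.317). Of 11 transcription factors 3 were higher, with Gata3 at 8.34 and Runx3 at 4.10, and 3 lower, with Nfil3 at -3.69 and Tcf7 at -2.15. Of 18 other NK genes 9 were higher, with Il18r1 at 4.67 and Itga2 at 4.32, and 4 lower. S1pr5 (-5.39) was lower by library totals too, while Cd96 (-1.24, against -0.10 by library totals, adjusted p = 0.816), Cd160 (-2.22, against -1.08, adjusted p = 0.0998) and Txk (-1.03, against 0.08, adjusted p = 0.842) did not pass by them. In vehicle samples Ulbp1 was the 1 of 7 ligand genes higher in tumor (4.94, SE 0.24), at 34.9 ± 0.993 CPM in tumor and 0.444 ± 0.119 CPM in liver. The other 6 were lower there by TMM, and H2-T23 did not pass by library totals (-0.05, adjusted p = 0.846). Gata3 and Itga2 are also made by mammary epithelial cells, and the part of these cells was not tested.

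Because activated T cells share several of these genes, T cell markers are given beside them. In tumor 11 of 12 tested T cell markers rose with TDB, with a median change of 4.34. Cd3e, the gene of a T cell receptor chain, had 65, 78 and 28 counts in TDB tumors and 0 in each vehicle tumor, and Cd8a had 83, 82 and 40 counts with TDB and 3, 2 and 0 with vehicle. The 13 markers summed to 17.3 to 28.4 CPM in TDB tumor, 2.57 to 4.71 in vehicle tumor, 30.0 to 40.2 in TDB liver and 13.7 to 15.1 CPM in vehicle liver. The 10 NK receptor and Eomes genes summed to 15.3 to 23.3 CPM in TDB tumor, 0.238 to 0.673 in vehicle tumor, 9.0 to 14.8 in TDB liver and 2.76 to 6.81 CPM in vehicle liver. Klrk1, which activated or memory CD8 T cells also express, weighs most in the receptor sum. It gave 56.6% of the counts of the 10 genes in TDB tumor, 67.9% in TDB liver, 50.7% in vehicle liver and 25% in vehicle tumor. Both sums thus were lowest in vehicle tumor. In TDB samples the T cell sum was lower in each tumor than in any liver, also after TMM scaling (11.3 to 18.8 in tumor and 47.2 to 54.1 in liver). The receptor sum was higher in each TDB tumor than in any TDB liver in CPM, but after TMM scaling it was 10.0 to 15.5 in tumor and 12.1 to 21.6 in liver, with overlap. Cd3e over Ncr1 was 0.699, 1.15 and 0.549 in TDB tumor and 5.45, 1.69 and 4.0 in TDB liver, with no overlap (exact two-sided permutation p = 0.1). The part of T cells in the change of Klrk1, Klrd1, Klrc1 and Eomes was not tested.

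In liver Cd8a was the 1 of 13 T cell markers called, with 53, 64 and 89 counts with TDB and 10, 5 and 5 with vehicle (2.98, SE 0.44, adjusted p = 0.0426), and an adjusted p of up to 0.267 when 1 library was left out (lost without liver TDB 2 and without any 1 of the vehicle libraries). DESeq2 called 4 and limma-voom 1, and 9 had an unadjusted p below 0.05. The median change in liver was 0.95 for the T cell markers, 0.64 for the other NK genes and 0.58 for the ligands. It was 0.46 for the adaptor and signaling genes and 0.38 for the transcription factors, beside 0.04 for all genes. Trdc, the gamma-delta T cell receptor gene whose cells can carry NKG2D, had 54, 49 and 25 counts in TDB tumor and 2, 2 and 1 in vehicle tumor (change 4.52, SE 0.49, adjusted p = 0.00022). The 4 gamma-delta genes summed to 1.5 to 3.46 CPM in TDB tumor and 0.143 to 0.385 CPM in vehicle tumor. Trdc was the 1 of the 4 past the filter in tumor and weighs most in this sum, with 2.43, 1.67 and 1.17 CPM in TDB tumors 1 to 3. Of 5 genes marking type 1 innate lymphoid cells, relatives of NK cells that also carry NKp46, 4 of 5 tested rose in tumor and 0 in liver, where 1 had an unadjusted p under 0.05. Of the 4, Il7r (adjusted p = 0.0363) did not pass without the filter or without tumor TDB 2 or 3 or tumor vehicle 2 or 3 (0.0522 to 0.107). Their 5 genes summed to 63.0 to 68.2 CPM in TDB tumor and 47.7 to 74.7 CPM in vehicle tumor. Itga1 alone gave 38.7 to 45.8 CPM of this sum in TDB tumor, so the sum mainly describes that gene there. Of other immune cells, 3 of 4 neutrophil and 3 of 5 monocyte and macrophage genes tested were called higher in tumor, and no B cell gene passed the filter there. Among these Cxcr2 (adjusted p = 0.0322) did not pass without the filter, with all 12 libraries or without tumor TDB 1, 2 or 3 or tumor vehicle 1 (0.0501 to 0.123). Cd68 (adjusted p = 0.0492) did not pass with upper quartile scaling, library totals, no filter or all 12 libraries, or without tumor TDB 1, 2 or 3 or tumor vehicle 1 (0.0611 to 0.168). The part of these cells in the changes of the receptor genes was not tested.

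**Figure D5:**
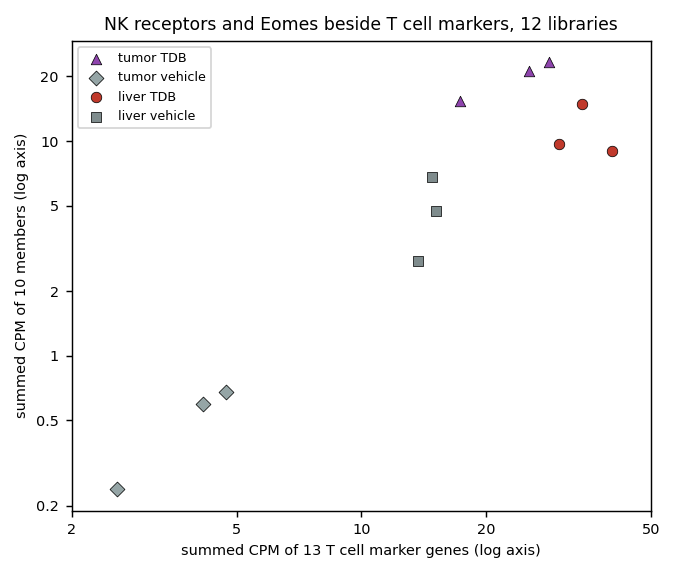
Summed CPM of the 10 NK receptor and Eomes genes against summed CPM of 13 T cell markers in each of the 12 libraries, both on log axes. Klrk1 alone gave 56.6% of the counts of the 10 genes in TDB tumor and 67.9% in TDB liver. TDB tumors lie to the left of and above the TDB livers in CPM, though their receptor sums overlap with those of TDB livers after TMM scaling (10.0 to 15.5 and 12.1 to 21.6), and the vehicle tumors lie lowest on both axes.

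The genes whose profile lay closest to that of Klrk1, Ncr1, Klrd1 and Eomes were looked up among 16557 genes, by the root mean square difference of centred log2 CPM over the 12 libraries. For Eomes they were Ikzf3 (0.396), the lysophospholipid-sensing receptor gene Gpr132 (0.57) and the cytokine receptor gene Csf2rb2 (0.606). For Ncr1 they were Atp8b4 (0.453), Stat2 (0.466), a factor of interferon signaling, and Aoah (0.466). For Klrd1 they were the interferon-induced genes Mx2 (0.386) and Ifitm3 (0.411), with AI662270 between them (0.391). For Klrk1 the closest were the MHC class II gene H2-Ab1 (0.66) and Plac8 (0.69). These values describe likeness in 4 groups of libraries and rest on the prior count of 2, since with a prior count of 0.5 the lists of 3 genes for each of the 4 shared 4 of 12 genes.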

How the data were processed

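RNA of dissociated tumor and liver was sequenced by Illumina HiSeq, per the labels. The authors deposited read counts per gene, not normalized, for 52636 gene identifiers, of which 52403 matched GENCODE M21. GSNAP, limma and GRCm38 are named in the submitters' processing notes without roles or versions. A deposited FPKM table was not used.

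Libraries were grouped by the labels' tissue and treatment. Genes passed edgeR's filterByExpr (10 counts minimum, 15 in total). Tests were edgeR 4.0.16 quasi-likelihood fits in R 4.3.3 with TMM scaling and robust dispersion, each on the 2 groups compared, and on all 12 libraries for the interaction, with adjusted p over all genes tested. Alternatives were median-of-ratios and upper quartile scaling, no filter, DESeq2 1.42.0, limma 3.58.1 (voom), a replicate block, all 12 libraries in the fit and leaving out each library. Library totals alone were added after seeing the data. The scripts were tested on simulated data. Ratios of scaled sums are summed counts over summed library totals of each group. They carry exact conditional binomial intervals (scipy 1.17.1, 95%), which cover counting error only, as does the floor of 3 counts over a group.

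The 10 genes and all gene lists were chosen with earlier results of these data known. Named beyond them were every listed gene called in liver, in other comparisons up to 4 called genes per list with the smallest p, and the 3 genes nearest in profile. Genes not called, marker genes, Ulbp1 in tumor and Cx3cr1 were named after their values were seen. Of 134 listed symbols, 6 (Raet1a, Raet1b, Raet1c, Trgc1, Trgc2 and Trgc4) had no entry by symbol. Promoter windows are from RefSeq (GRCm38.p6). One gene of the likeness lists and 1 promoter motif are not reported here.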

Additional observations from a re-analysis of the deposited data

Results flagged for a closer look

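Effects of TDB that differed between tissues by the interaction test (edgeR, tumor effect minus liver effect, log2 scale) are listed here. The cell type markers are left out, though 5 of 13 T cell markers were called higher too. Of the 10 genes these were Klrk1 (4.952), Ncr1 (4.232) and Klrb1c (4.449), each higher with TDB in 3 of 3 tumors than in any vehicle tumor. Klrb1c needed its tumor TDB libraries to pass the filter.

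Among the receptors' kin and ligands they were Klrb1b (5.738), H2-D1 (2.019), H2-K1 (1.912), Clec2d (1.943) and Ulbp1 (-3.719), the 1 with a negative difference. Klrb1b passed the filter through its tumor TDB libraries. Clec2d (adjusted p = 0.0402) no longer passed without liver TDB 2, without any 1 of the liver vehicle or tumor TDB libraries, or without tumor vehicle 2 or 3, with adjusted p of 0.0561 to 0.12.

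Among transcription factors they were Tbx21 (6.031) and Nfil3 (1.658). Among signaling and effector genes they were Zap70 (3.678), Txk (3.811), Il2rb (4.29), Nkg7 (4.015) and Xcl1 (4.28). Txk, a kinase of T and NK cells, did not pass without liver vehicle 2 (adjusted p = 0.0515), tumor TDB 1 (0.0595), tumor TDB 2 (0.0651), tumor vehicle 2 (0.0537) or tumor vehicle 3 (0.0689). Zap70 did not pass without liver vehicle 1 (0.0521), tumor TDB 2 (0.0659), tumor vehicle 2 (0.0597) or tumor vehicle 3 (0.0537).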

How the results depend on the processing

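In tumor, the 5 member genes tested were called higher with TDB under every alternative. Without the filter 9 were called, beside 2675 of 26132 genes called higher, and leaving out 1 library gave 5 to 6, with 0 lower throughout. In liver 0 were called higher or lower when 1 library was left out, and Ncr1 ran from -0.2491 (without liver TDB 2) to 0.4413 (without liver TDB 1), with -0.05948 without liver vehicle 3. Between TDB tumor and TDB liver, library totals gave 3 members higher and 0 lower (TMM: 1 and 1). Of all 15953 genes tested there, library totals called 9709 higher and 2556 lower, and TMM 5432 and 5349. Library totals reversed Klrk1 (0.5723), Klrb1c (0.8385), Klrc1 (0.8661) and Klra2 (0.3366), as the median of all genes moved by 1.13. Leaving out 1 library there gave 0 to 1 higher and 1 to 2 lower, and Klrc1 ran from -0.8457 (without tumor TDB 2) to 0.1706 (without liver TDB 2), with 0.07792 without tumor TDB 3. Between vehicle tumor and vehicle liver 2 members were lower, and 2 whenever 1 library was left out. Without the filter 7 were lower, beside 6392 of 25348 genes, and with all 12 libraries in the fit 6, beside 5980 of 16557. More members were tested in both of these fits. In the interaction 3 members were called higher, and 3 to 4 when 1 library was left out. DESeq2 called 5 higher, beside 582 of 16557 genes, and limma-voom 4, beside 391 of 16557. Without the filter 4 were called higher, beside 326 of 27795 genes. Where not stated above, the cause was not tested.

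Whether replicate numbers pair tumor and liver of 1 mouse could not be settled. Correlations of same-numbered deviations ran from 0.0147 to 0.0965 between TDB liver and tumor and from -0.0389 to 0.0779 between vehicle liver and tumor. Only these groups could share mice, and low correlations cannot decide whether they do. Over all 6 pairs of groups the correlations ran from -0.0844 to 0.462, and in 0 of 6 all 3 were over 0.1. With number as a replicate block, 1 member was called higher in liver (Klrk1, adjusted p = 0.0138), 5 in tumor, 0 higher and 1 lower between TDB tumor and TDB liver (Eomes, adjusted p = 0.0704), 0 higher and 2 lower between the vehicle tissues, and 2 in the interaction (Klrb1c, adjusted p = 0.0655). Of the other genes named for the interaction, Klrb1b (adjusted p = 0.0569), Clec2d (0.0573) and Txk (0.124) did not pass with the block.

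Over all genes the liver calls were 73 in the main test, 145 without the filter, 352 by DESeq2, 350 with the block and 323 with all 12 libraries. In tumor they were 4456 and, with all 12 libraries, 1695. In the interaction they were 412, 897 by DESeq2 and 258 with the block. Depth limits Klre1, Klra4, Klra7, Klra8 and all vehicle tumors, where no member had over 6 counts in a library.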
